A study of Drosophila melanogaster with 18 samples.

Results

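The 1000 lowest-numbered initiation sites of a genome-wide STAP-seq list were compared with the other sites of the same list in Drosophila melanogaster. Each site of the list carries a serial number, and sites numbered 1 to 1000 were kept, which is 1000 of 13218 sites, or 7.57%. The members were thus chosen by the serial number alone. The sources used here do not give what the number ranks, so a low number is not read as a strong or a weak site, and no level stands behind it in the list.

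STAP-seq places short genomic fragments in a reporter plasmid and sequences transcripts from their 5′ ends to find the bases within a fragment at which they begin, so each fragment is tested for its own ability to start transcription. The study has 18 samples in 9 groups. In S2 cells, 2 samples carried genome-wide fragments beside the zfh1 enhancer and 2 carried them in a vector with no enhancer. A smaller library was made from bacterial artificial chromosomes (BACs), and 3 of its samples had the zfh1 enhancer and 1 had none. Another 10 samples, which paired BAC fragments with enhancers of sgl, ham, ncm or ssp3 in S2 cells or of tj in ovarian somatic cells, were not used here. The fragments of all groups came from embryos of the sequenced y; cn bw sp strain and were about 100 to 250 bp long, and a vector without an enhancer served as the control. S2 cells are a line derived from embryos and resemble blood cells, so they model one cell type, and a fragment in a plasmid lacks its chromosomal surroundings. The zfh1 and the no-enhancer samples point to 1 shared list per library, and the lists hold positions without values for samples, so neither a response to the enhancer nor a spread between replicates can be given for any site. Depth is unknown for the same reason.

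A core promoter is the short stretch around a transcription start at which general transcription factors and RNA polymerase II assemble. Many core promoters start at 1 base, and others start at several bases close together. At open regulatory DNA a pair of start sites on opposite strands often points outwards, which is called divergent initiation. Enhancers, such as that of the transcription factor gene zfh1, raise initiation at a core promoter from a distance. Heterochromatin is the compact, repeat-rich DNA around centromeres, on chromosome Y and on much of chromosome 4. In the dm3 build a part of it is held in the scaffolds whose names end in Het.

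Sites 1 to 1000 were spread over all 5 large chromosome arms, on both strands, and 33 of them lay within 2000 bp of another member. They were scarcer on the Het scaffolds than the other sites, almost missing from the regions that the BAC list covers, and more often had a second site close by on the same strand. Where they had one, it lay upstream more often than downstream. In close pairs without a member, too, the downstream site more often had the lower number. All positions below are 1-based in dm3. The tests compare sites, which do not stand in for replicates, and sites close to each other are not independent. Their p-values and the 95% intervals therefore describe this list of sites and cover counting error only.

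The sites at the start of the numbering show this spread. Site 1 lay on 3R at 9638830 on the plus strand, and its nearest neighbour on that strand was 30341 bp upstream. Site 2 lay on 2L at 14490863 on the plus strand, with the next plus-strand site 431 bp upstream. Site 3 lay on 2L at 11081397 on the minus strand, 8949 bp from the nearest minus-strand site. Sites 4, 5 and 6 were all on X, at 6173301 on the minus strand and at 11908458 and 8819203 on the plus strand. Sites 7 and 10 lay on 2R at 15212995 and on 3L at 15946091, both on the minus strand. Sites 8 and 9 lay on 3R at 25081514 and 23263214, both on the minus strand. Among the first 20 sites, 9 were on 3R, 3 each on 2L and X, 2 each on 2R and 3L, and 1 on 2RHet. They divided evenly over the strands, with 10 on plus and 10 on minus. The median distance to the nearest site on either strand was 2656 bp, and 7 of the 20 had no other site within 5000 bp. A same-strand site within 100 bp was present for site 19, at 98 bp, and for site 20, at 43 bp. None of the 20 had an opposite-strand site within 100 bp, and none lay in a region covered by the BAC list.

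The strand was tested first, since a list of start sites without strand bias should divide near the middle. Of the members, 516 were on the plus strand and 484 on the minus strand. The plus-strand share was 51.6% (95% Wilson interval 48.5 to 54.7%) for members and 49.98% for other sites, a difference of 1.62 percentage points (95% Newcombe interval -1.60 to 4.83). Fisher's exact test, two-sided and adjusted by Benjamini-Hochberg over a family of 8 properties, did not find a difference (adjusted p = 0.518).

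Members were scarcer in heterochromatin as assembled here. On the Het scaffolds lay 18 of the 1000 members, or 1.8% (1.14 to 2.83%), against 731 of the 12218 other sites, or 5.98% (5.58 to 6.42%). The difference was -4.18 points (-4.97 to -3.08), with a p of 5.70e-10 in Fisher's exact test and an adjusted p of 4.56e-09 over the 8 properties. Sites numbered just above 1000 shared much of this scarcity: the next 1000 sites had 3.40% on Het scaffolds, and against them alone the difference of -1.60 points did not pass Fisher's exact test (adjusted p = 0.273).

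Chromosome by chromosome, the member share of the listed sites was 8.48% on 2L (181 of 2134), 8.70% on 2R (224 of 2574), 8.29% on 3L (209 of 2521), 6.74% on 3R (207 of 3071) and 7.67% on X (160 of 2086). In Fisher's exact test none of the 5 arms differed from the rest of the list after adjustment over the 12 chromosomes and scaffolds, with adjusted p-values of 0.0611 for 2R, 0.123 for 3R, 0.140 for 2L, 0.176 for 3L and 0.935 for X. On 2RHet 7 of 266 sites were members (2.63%, adjusted exact p = 0.00550), and on 3RHet 2 of 187 (1.07%, adjusted p = 0.00141), and these were the scaffolds that passed the test. On 3LHet 7 of 181 sites were members (3.87%, adjusted exact p = 0.128), and on XHet 2 of 77 (2.60%, adjusted p = 0.176). Chromosome 4, the small and largely heterochromatic one, held 1 member among 83 sites (1.20%, adjusted exact p = 0.0611). That member, site 280, lay at 364984 on the plus strand with no other site within 14557 bp. 2LHet and YHet held no member among 26 and 12 sites, which allows shares of up to 11.5% and 25% by the limit of 3 counts (12.9 and 24.2% as Wilson upper bounds).

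**Figure D1:**
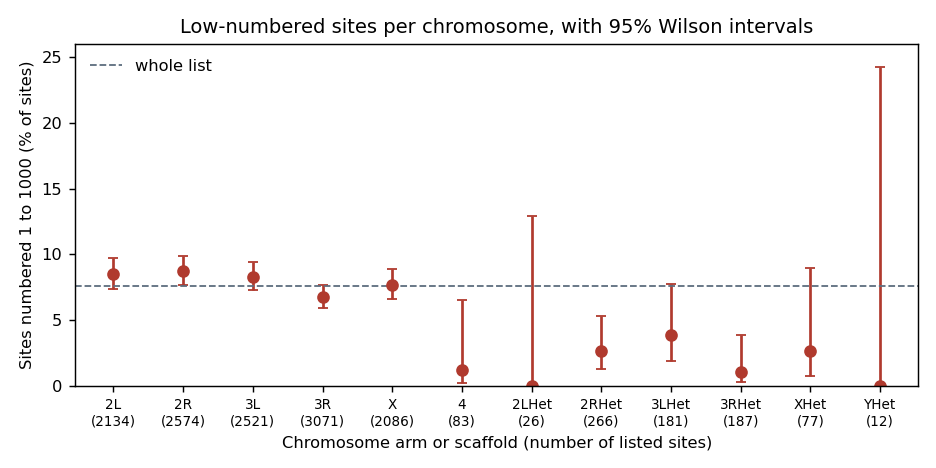
Share of the listed sites that are numbered 1 to 1000, in percent, for each chromosome arm and scaffold of dm3, with the number of listed sites in parentheses. Points are shares and bars 95% Wilson intervals. The 5 large arms lie between 6.74 and 8.70%, near the dashed line at 7.57% for the whole list. The points of chromosome 4 and the Het scaffolds lie below it, but the bars of 2LHet, 3LHet, XHet and YHet include it.

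The lowest number on 2RHet was 20, at 3183387 on the plus strand. The lowest on 3LHet was 219, on 3RHet 238 and on XHet 392, and the first sites of 2LHet and YHet had the numbers 1681 and 2483. The Het members varied among themselves in their surroundings. Site 238 on 3RHet had an opposite-strand site 38 bp away in convergent orientation, and site 392 on XHet had one 71 bp away in divergent orientation. Site 219 on 3LHet had no site on either strand within 3157 bp. Members were also scarcer at the centromeric ends when the 5 arms were pooled, though not on every arm. In the 10 equal parts of each arm, the part next to the centromere held 56 members among 1168 sites, or 4.79% (3.71 to 6.17%). By arm this share was 2.31% on 3L, 2.79% on 2R, 4.98% on 2L, 6.29% on X and 6.65% on 3R. The value for 3R was near the 6.74% of that whole arm. The other 45 parts held 925 members among 11218 sites, or 8.25% (7.75 to 8.77%), with values of 4.28 to 13.8%, so the ranges overlapped. This comparison of arm ends was added after the positions were seen and is given without a test.

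Close neighbours on the same strand came next, since transcription can start at several bases close together. The list holds no same-strand pair closer than 22 bp, so starts nearer to each other than that cannot be seen in it. Of the members, 186 had another same-strand site within 100 bp, or 18.6% (16.3 to 21.1%), against 1712 other sites, or 14.01% (13.4 to 14.6%). The difference was 4.59 points (2.21 to 7.19), with a p of 0.000117 in Fisher's exact test and an adjusted p of 0.000467. Members were higher on 5 of 5 arms, by 2.13 to 6.99 points. The interval of the difference included 0 on 2R (-0.498 to 9.79) and on X (-3.24 to 8.94). Against the next 1000 sites alone the difference was 2.20 points and did not pass the exact test (adjusted p = 0.577). Once the 25% of sites with the highest numbers were taken off the list, it was 1.28 points and did not pass either (adjusted exact p = 0.468). Of the 186 close neighbours, 6 were themselves members, or 3.23%, where members make up 7.57% of the list.

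The side on which this neighbour lay differed between members and an even split. For 126 of the 186 members the nearest same-strand site within 100 bp was upstream, that is, against the direction of transcription, and for 60 it was downstream. The upstream share was 67.7% (60.7 to 74.0%), against an even split with an exact two-sided binomial p of 1.48e-06, and of 4.92e-06 after adjustment over this test, the test for BAC regions below and the 8 properties. The upstream share was 66.7% on 2L (24 of 36), 82.1% on 2R (32 of 39), 55.3% on 3L (21 of 38), 69.0% on 3R (29 of 42) and 60.7% on X (17 of 28). For other sites the neighbour was upstream in 817 cases and downstream in 895, an upstream share of 47.7% (45.4 to 50.1%, exact binomial p = 0.0627). The values for members and others are partly tied, since most neighbours of members are themselves among the other sites and see the member on the opposite side. Of all same-strand pairs within 100 bp, the downstream site had the lower number in 660 of 1097 (60.2%, 57.2 to 63.0%). This was so in 140 of 207 pairs with a member (67.6%, 61.0 to 73.6%). In pairs without one it was 520 of 890 (58.4%, 55.2 to 61.6%). An even split is thus no neutral baseline for low-numbered sites, and the direction was not particular to members. No test was run on these pair counts. The next 1000 sites had 100 upstream neighbours among 164, or 61.0% (exact binomial p = 0.00610). This test was chosen after the distances had been seen.

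The excess on the upstream side ended near 100 bp. Counting every same-strand site around the members, 29 lay 22 to 30 bp upstream and 7 at that distance downstream. At 31 to 40 bp there were 29 upstream and 20 downstream, at 41 to 50 bp 25 and 11, at 51 to 75 bp 34 and 21, and at 76 to 100 bp 25 and 9. Beyond this the sides were close to even. At 101 to 150 bp 13 sites lay upstream and 17 downstream, at 151 to 200 bp 11 and 8, and at 251 to 300 bp 5 and 5.

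**Figure D2:**
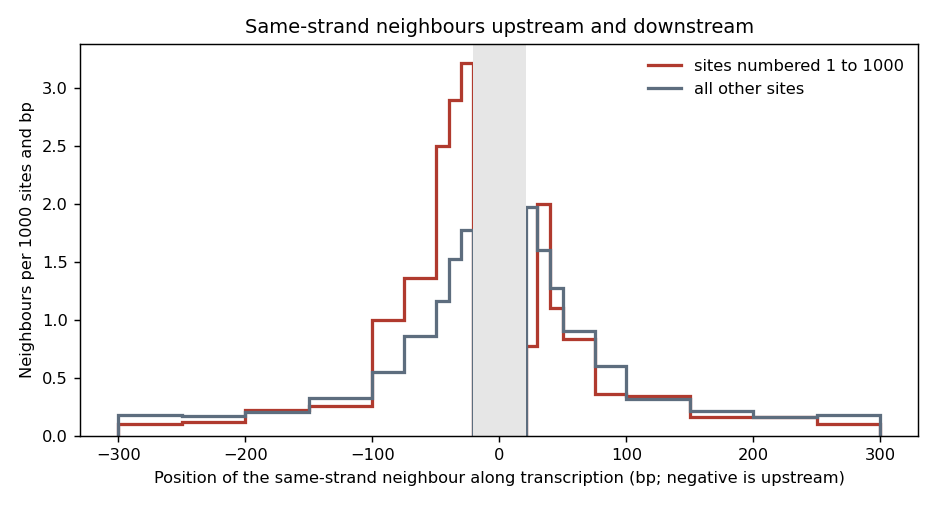
Same-strand neighbours around sites numbered 1 to 1000 and around all other sites, as neighbours per 1000 sites and bp (y axis) at each position along the direction of transcription in bp (x axis, negative is upstream). The grey band marks distances below 22 bp, at which the list holds no same-strand pair. Within 100 bp the line for members is higher upstream than downstream at each distance.

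Opposite-strand neighbours were about as frequent around members as around other sites. Within 100 bp 87 members had one, or 8.70%, against 8.21% of other sites, a difference of 0.49 points (-1.18 to 2.46, adjusted exact p = 0.590). When the nearest opposite-strand site lay 22 to 250 bp away, the pair was called divergent if the transcripts pointed away from each other and convergent if they pointed at each other. Of 102 such members 71 were in divergent pairs, or 69.6% (60.1 to 77.7%), against 857 of 1355 other sites, or 63.2% (60.6 to 65.8%). The difference of 6.36 points (-3.47 to 14.8) did not pass the exact test (adjusted p = 0.518). Divergent pairs were wider than convergent ones around members, with a median distance of 108 bp (quartiles 54 and 147) against 51 bp (37 and 65). Around other sites the medians were 111 bp for divergent and 65 bp for convergent pairs. None of the 71 divergent members had another member as its partner, and 2 of the 31 convergent ones did. Members make up 7.57% of the list.

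Site 21, the lowest-numbered one with an opposite-strand site within 250 bp, lay on 2R at 1579226 on the minus strand, with a divergent partner numbered 8540 at 65 bp. Site 40, on 3L at 1463819 on the plus strand, had a convergent partner numbered 7177 at 36 bp. Site 51, on 2L at 8522136 on the plus strand, had a divergent partner numbered 11276 at 31 bp. These 3 were chosen after their values were seen. The other extreme, isolation, was also about as frequent as elsewhere. No other site lay within 5000 bp of 294 members, or 29.4%, against 28.2% of other sites (difference 1.20 points, -1.65 to 4.21, adjusted exact p = 0.562).

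Members rarely lay next to each other. When members at gaps of at most 2000 bp were joined, 967 stayed single, 15 pairs formed and 1 group of 3. Thus 33 members, or 3.3%, lay in such groups, whereas in the other 12 full bins of 1000 numbers 59 to 137 sites did (median 72.5). The counts of 137 and 131 came from bins in which chromosome and position ascend with the number when compared as text, digit by digit. In such an order close sites mostly fall in 1 bin. In the other 10 of these bins the count was 59 to 88. How far the order of the numbers sets these counts was not tested. The group of 3 spanned 3L 3249340 to 3250659 and held the sites 328, 383 and 649, all on the plus strand. Among the pairs, sites 14 and 8 lay on 3R at 25081045 and 25081514, on the minus strand and 469 bp apart. Sites 73 and 62 lay on 3R at 912431 and 912790, again on the minus strand. The tightest pairs named by the rule were sites 712 and 162 on 3R, 31 bp apart on the minus strand, and sites 802 and 173 on 3L, 35 bp apart on the plus strand. Site 162 lay upstream of site 712, and site 173 downstream of site 802.

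Between neighbouring members of an arm the median gap was 75.4 kb (quartiles 31.9 and 165.3 kb). Such gaps were not measured for other sets of sites, so this median cannot be called long or short. The longest stretch without a member was on 3L from 9608019 to 10850990, 1243 kb with 90 other sites inside. The next were 1156 kb on 2L from 21829059 to 22985322 with 92 other sites, and 1011 kb on 3L from 22705257 to 23716150 with 88. Stretches of 890.6 kb on 2R from 596419 to 1487041 and of 793.1 kb on 2L from 11081397 to 11874458 followed, with 80 and 44 other sites. These stretches were thus not empty of initiation sites.

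A larger relative difference was found in the regions covered by the BAC list. The labels give no BAC coordinates, so a region was taken as a stretch of BAC sites without a gap above 60 kb, which gave 34 regions of 4.90 Mb in all on the 5 large arms. Of the 981 members on these arms 3 lay inside, or 0.306% (0.104 to 0.895%), against 653 of 11405 other sites, or 5.73% (5.31 to 6.17%). The difference was -5.42 points (-5.91 to -4.70), with a p of 5.12e-20 in Fisher's exact test and of 5.12e-19 after adjustment over the 10 tests. This comparison was added after the positions had been seen. On 3L and 3R no member lay inside, against 121 and 200 other sites, and on 2L, 2R and X 1 member each, against 138, 113 and 81 other sites. In all, 31 of the 34 regions held no member.

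As a density, members came to 0.612 per Mb inside the BAC regions (exact Poisson interval 0.126 to 1.79), against 8.59 per Mb outside them (8.06 to 9.14). For other sites the density was 133.2 per Mb inside and 94.4 per Mb outside, so the regions were not empty of initiation sites. Each region begins and ends at a BAC site and has no gap above 60 kb between BAC sites. This definition raises the density inside, so the values cannot show whether the BACs are rich or poor in initiation sites. Of the next 1000 sites, 963 lay on these arms and 30 of them inside, or 3.12%. Against these alone the members' 0.306% was still lower (difference -2.81 points, Fisher's exact p = 5.20e-07). The scarcity stopped close to the borders. Of the sites inside, 0.457% were members (3 of 656), against 4.63% at up to 20 kb from a region (5 of 108), 8.50% at 20 to 50 kb (17 of 200), 7.37% at 50 to 100 kb (21 of 285) and 9.53% at 100 to 200 kb (55 of 577). At more than 500 kb 8.23% were members (725 of 8808).

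**Figure D3:**
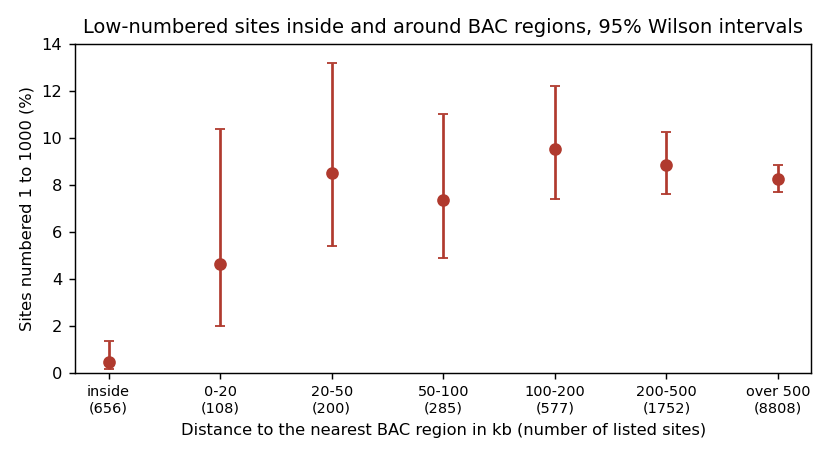
Share of genome-wide sites numbered 1 to 1000, in percent, inside the 34 BAC regions and at increasing distance in kb from them, on the 5 large arms, with the number of listed sites in parentheses. Points are shares and bars 95% Wilson intervals. The share is 0.457% inside and between 7.37 and 9.53% from 20 kb outwards.

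The 3 members inside were site 545 on X at 9556789, site 740 on 2R at 7120006 and site 755 on 2L at 4997377, all on the minus strand. Each was present in the BAC list at the same base and strand, where it had the number 108, 369 and 123 in that order. Of the other sites inside, 403 of 653 were at the same base (61.7%) and 457 within 5 bp (69.98%). With 3 members Fisher's exact test gave an adjusted p of 0.518 for the same base and of 0.590 for 5 bp, and so few members could not have shown a difference of this size.

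The BAC list also carries serial numbers. A site within 5 bp of a BAC site lies in a BAC region or at its edge. With 3 members inside the regions, few partners could therefore be members, and the counts below are no separate result. Over all 461 BAC sites with a genome-wide site within 5 bp, 3 partners were members and the median number was 5133. Sites 1 to 57 of that list make up the same share of it as sites 1 to 1000 do of the genome-wide list. Of these, 56 had such a partner, with a median number of 3144, and none of the 56 was a member. With 3 members among all 461 partners, none among 56 is near the share of all partners. Members make up 7.57% of the genome-wide list. The numbers of both lists were given by the authors, and the sources used here do not say whether they rank the same quantity.

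**Figure D4:**
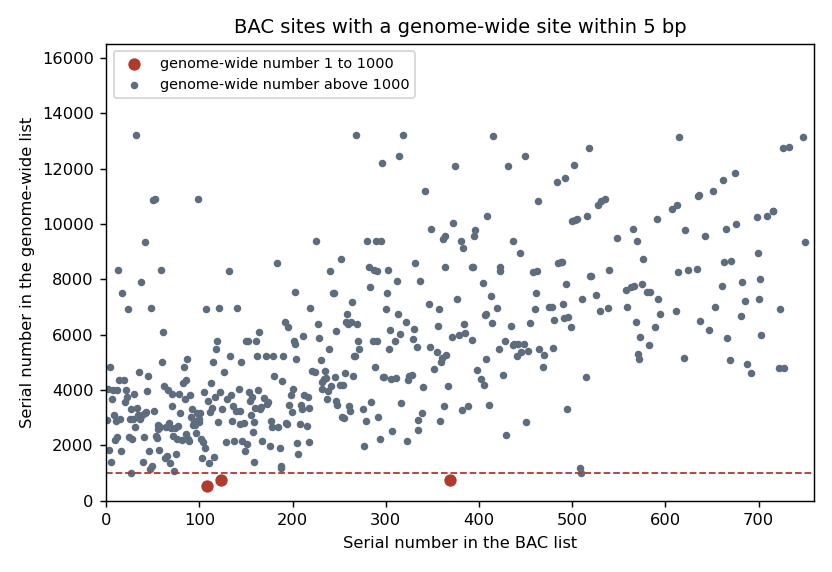
Serial number in the genome-wide list (y axis) against serial number in the BAC list (x axis) for the 461 BAC sites with a genome-wide site of the same strand within 5 bp. Red points are the 3 members, and the dashed line marks number 1000. All other points lie above the line.

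Bins of 1000 numbers show how far the first bin stood apart from the rest. The Het share was 1.8% in the first bin, against 3.40 to 7.80% in the other 12 full bins. The share inside BAC regions was 0.300%, against 3.0 to 7.7%, and the first 3 bins had 3, 30 and 66 sites inside. The share with a same-strand site within 100 bp was 18.6%, against 10.7 to 16.4%. The upstream share of these was 67.7%, against 34.6 to 61.0%. In these 4 measures the first bin lay outside the range of the other full bins, and the second bin was the nearest full bin in each. The shorter last bin, of 218 sites, had a same-strand share of 18.3% (13.8 to 24.0%), close to that of the first. In the other measures it was not close, with 9.17% on Het scaffolds, 6.88% in BAC regions and an upstream share of 42.5%. For the BAC regions the step from the first to the second bin was large, with 0.300% against 3.0%. The opposite-strand share of 8.70% lay within the range of 5.50 to 9.40%, and so did the isolated share of 29.4% (26.2 to 31.5%) and the plus-strand share of 51.6% (47.6 to 52.9%). The divergent share of 69.6% lay just above the range of 58.0 to 69.2%, although its difference from all other sites did not pass the test.

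**Figure D5:**
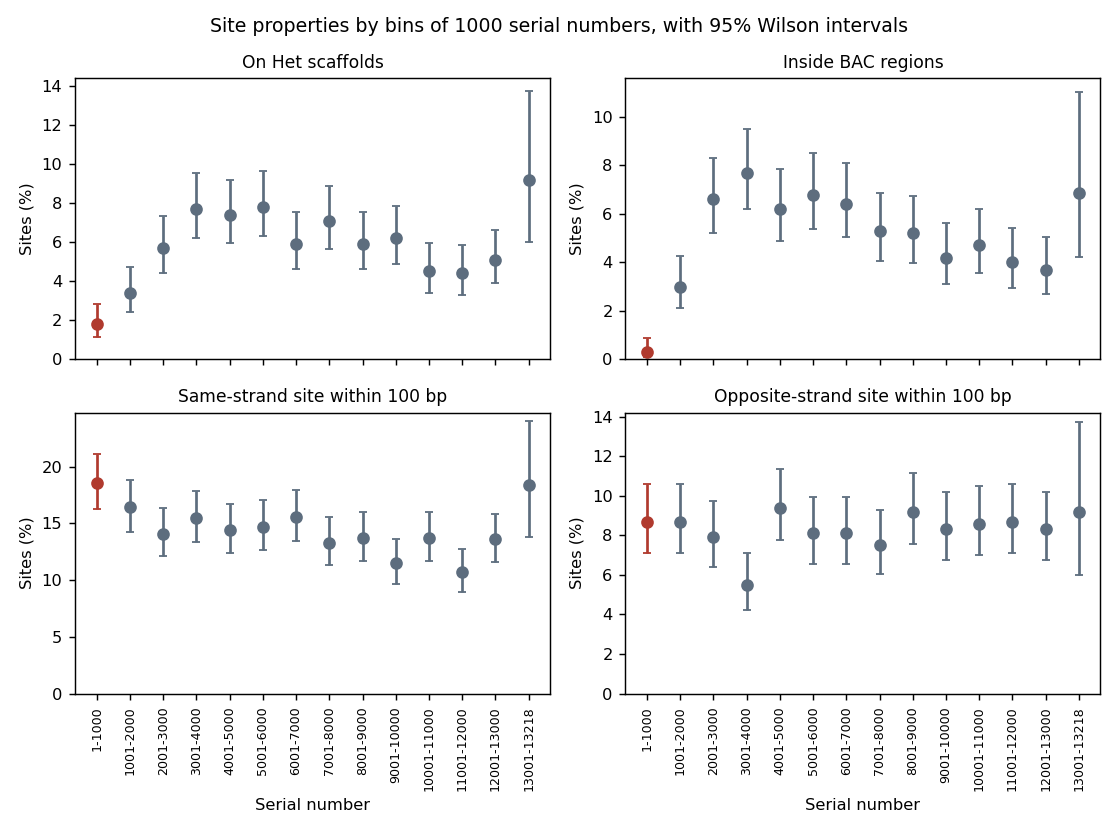
Percent of sites on Het scaffolds, inside BAC regions, with a same-strand site within 100 bp and with an opposite-strand site within 100 bp, for each bin of 1000 serial numbers from low to high. The last bin is shorter. Points are shares, bars are 95% Wilson intervals, and sites 1 to 1000 are red. The red point is the lowest in both upper panels (1.8 and 0.300%) and at 18.6% the highest in the lower left one.

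At the threshold itself, sites 998 and 999 lay on 2L at 8370532 and 18517639, both on the plus strand, and site 1000 on 3L at 16928632 on the minus strand. Just outside, site 1002 lay on 3R at 20120778 and site 1004 on X at 5259262, both on the plus strand, the second with a same-strand site 23 bp upstream. Of the last 50 members 4 were on Het scaffolds, 8 had a same-strand site within 100 bp and none lay in a BAC region. Of the 50 sites that follow, 1 was on a Het scaffold, 12 had such a neighbour and 2 lay in a BAC region.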

How the data were processed

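STAP-seq initiation sites of the genome-wide library (zfh1 and no-enhancer samples, S2 cells) and of the BAC library were used as deposited. Each list gives chromosome, start, end, a name with a serial number and a strand, with no header, level or sample column, so depth is unknown. The sources used here do not state how sites were called, merged or numbered. The submitters' processing notes name the build dm3 and, with no role, Bowtie 0.12.9 and CASAVA 1.9.1. The gene table at hand describes another build. Genes were therefore not assigned, and no sequence was read.

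Sites 1 to 1000 were set against the others with Python 3.11.15, numpy 2.4.6, pandas 2.3.3 and scipy 1.17.1. Shares have Wilson and differences Newcombe 95% intervals. Fisher's exact test was two-sided, adjusted by Benjamini-Hochberg over 8 properties or 12 chromosomes. The BAC regions and the upstream share were added after the positions were seen and adjusted together with the 8 properties. The code for same-strand neighbours, pair orientation, BAC matches and the comparison of shares was tested on simulated data. The upstream share and the share in BAC regions were not part of that check. Sites named are, by rule, numbers 1 to 20, the lowest number of each chromosome, those at the threshold, members in BAC regions, the 5 largest groups and the 5 longest stretches without a member. The members and lists were chosen with earlier results of these data known. Alternatives changed the range of member numbers, the compared sites, the arms, the distances, the region gap and the highest-numbered 25%.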

Additional observations from a re-analysis of the deposited data

How the results depend on the processing

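Differences are members minus other sites, in percentage points. No paired analysis was possible because positions carry no values of samples or replicates. The BAC-region difference (-5.85 to -2.81), the upstream share (13.9 to 23.5 points above 50%), and the divergent share kept their direction and their side of the threshold under every alternative run. Without sites in BAC regions, 2 scaffolds passed the chromosome test, 2RHet and 3RHet, as in the full list. With members numbered 1 to 2000 the plus-strand difference was -0.587, the isolated share passed at 2.55 (adjusted exact p = 0.0328), and in BAC regions members more often had a BAC site at the same base (20.98, adjusted exact p = 0.0325) or within 5 bp (25.1, adjusted exact p = 0.00360). Against the next 1000 sites alone, the Het difference (-1.60) and the same-strand difference (2.20) no longer passed and the isolated difference was -2.10. Without the highest-numbered 25% the same-strand difference (1.28) no longer passed, the opposite-strand one was -0.192 and the isolated one passed at 4.21 (adjusted exact p = 0.0375). At 1000 bp the opposite-strand difference was -2.60 and the isolated one -2.30. Leaving out 2L gave an opposite-strand difference of -0.441, and leaving out 3L a plus-strand difference of -0.0728. The causes were not tested. No value could be had for BAC matches with members 1 to 500, for the Het share on arms alone, or for same-strand measures with close sites counted once. Depth and replicate spread cannot be judged from positions.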

Other observations

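In same-strand pairs within 100 bp that held no member, the downstream site had the lower number in 520 of 890 pairs (58.4%, 55.2 to 61.6%). This count was chosen after the data were seen and no test was run on it.

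The order of the numbers was less tied to position, sorted as text, among the members. Runs were counted over which chromosome and position, compared as text digit by digit, only ascend with the number. Numeric position can fall within such a run. Among sites 1 to 1000 such runs began 439 times, with a median length of 2 sites and a longest run of 8. In the next 1000 sites 191 runs began, and over the other full bins 0 to 191 did (median 18.5).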
